A study of Homo sapiens with 8 samples.

Results

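GJA1, which encodes connexin 43, was followed together with 6 genes of the connexin and pannexin families, GJA3, GJB2, GJB5, GJC1, PANX1 and PANX2, in 2 non-small cell lung cancer cell lines and their variants resistant to an FGFR inhibitor. The 7 genes were taken by symbol from the 37441 genes of the count table, in which 24 genes belong to these families. GJA1 was chosen by its difference between resistant and sensitive libraries, being higher in both resistant variants, so its change with resistance is given below as a description, without a test. The other 6 genes were listed for their family. The sensitive variants were NCI-H1581, grown in DMEM/F12, and NCI-H1703, grown in RPMI 1640, in 2 libraries each. NCI-H1581R and NCI-H1703R, also in 2 libraries each, came from these lines after 4 to 6 months of culture in CPL304110, a pan-FGFR inhibitor, starting from 50 nM and ending at 2.5 µM for NCI-H1581R and at 5 µM for NCI-H1703R. Each resistant variant is described as 1 selected culture, so its 2 libraries are repeated harvests of that culture and not separate selections. All cells were harvested 24 h after a change of medium, and whether that medium held CPL304110 is not given in the sources used here.

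Connexins are membrane proteins that assemble into hexameric hemichannels, and hemichannels of neighbouring cells dock into gap junctions through which ions and small metabolites pass directly from cell to cell. Pannexins share this fold but mostly form single-membrane channels, which release ATP to purinergic receptors. Connexin 43 is the most widely expressed connexin; it is rapidly turned over, binds the scaffold ZO-1 through its tail and is phosphorylated there by MAP kinases, protein kinase C, protein kinase A and Src.

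The libraries held 33800389 to 40031710 counts. Among carcinoma markers, EPCAM had 284 to 537 counts in the 4 libraries of NCI-H1581 and NCI-H1581R and 3 to 26 in those of NCI-H1703 and NCI-H1703R, CDH1 had 10 to 46 in all libraries, and 1 of the 5 epithelial genes was called lower with resistance in each line. Of the squamous markers, KRT14 had at most 2 counts and DSG3 at most 11, whereas TP63 had 211 and 232 counts in NCI-H1581, 1045 and 1229 in NCI-H1581R and 4 to 9 in the NCI-H1703 pair. Of the lung markers, NKX2-1 had 457 and 601 counts in NCI-H1581, 1509 and 2341 in NCI-H1581R and 6 to 24 in the NCI-H1703 pair, and SFTPC was at 0. Among markers of blood and endothelium CD3E, MS4A1 and HBB were at 0, PTPRC had at most 15 counts and PECAM1 at most 18, and none was called with resistance. Levels are means over a culture, in which a larger share of cells holding a transcript and more transcript per cell cannot be told apart.

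GJA1 lies on chromosome 6 at 121435595 to 121449727 on the plus strand of GRCh38 (GENCODE v44), GJB2 and GJA3 lie 26411 bp apart on the minus strand of chromosome 13 (20187463 to 20192938 and 20138255 to 20161052), and GJC1 is at chromosome 17, 44798448 to 44830816, on the minus strand. On plus strands, GJB5 is at chromosome 1, 34755047 to 34758512, PANX1 at chromosome 11, 94128841 to 94181968, and PANX2 at chromosome 22, 50170731 to 50180295. No exon of these 7 genes overlaps an exon of another annotated gene. The 250 bases before the RefSeq transcript starts of GJA1 and GJA3 are shown because these genes moved most with resistance in NCI-H1581R, in opposite directions. They are RefSeq sequences of GRCh38.p14, read 5′ to 3′ on the gene's own strand (GJA1 at chr6:121435396-121435645, plus; GJA3 at chr13:20161053-20161302, minus), and capitals mark the motifs found.
GJA1: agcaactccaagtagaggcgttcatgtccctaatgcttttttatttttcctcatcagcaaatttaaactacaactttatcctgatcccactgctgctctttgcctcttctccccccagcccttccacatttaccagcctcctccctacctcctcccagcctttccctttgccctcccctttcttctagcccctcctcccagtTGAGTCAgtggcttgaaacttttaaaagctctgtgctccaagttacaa
GJA3: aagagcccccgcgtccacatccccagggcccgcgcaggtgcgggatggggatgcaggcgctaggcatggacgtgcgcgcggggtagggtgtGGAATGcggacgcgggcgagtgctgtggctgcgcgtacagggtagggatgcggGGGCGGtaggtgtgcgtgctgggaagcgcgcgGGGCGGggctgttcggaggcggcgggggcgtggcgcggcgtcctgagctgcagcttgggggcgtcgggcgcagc

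Both strands were searched for the AP-1 motif (TGANTCA), the GC box (GGGCGG), the TATA box (TATAAA) and the TEAD motif (GGAATG), which do not share letters in these windows, and position -1 is the base before the RefSeq start. For GJA1 that start, 121435646, lies 51 bases inside the gene as GENCODE places it, so the last 51 bases of its window, with the motif found there, belong to the GENCODE gene; for GJA3 the starts are the same base. GJA1 held 1 AP-1 motif at -48 to -42, as did 6.57% of 35116 promoters of this length, and none of the other 3 motifs. GJA3 held 2 GC boxes, at -106 to -101 and -74 to -69, which occur in 42.6% of promoters, and 1 TEAD motif at -159 to -154, which occurs in 11.9%. The TATA box occurs in 10.7%. The windows also differed in GC content, with 48.0% in GJA1 and 74.8% in GJA3. These matches describe the letters only. Of the other members, GJB2 and PANX1 also had an entry in the promoter table.

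GJA1 was the most abundant transcript of its family in NCI-H1581R and among the least abundant detected members in NCI-H1703. Its counts were 1253 and 2604 in NCI-H1581, 14800 and 12966 in NCI-H1581R, 26 and 22 in NCI-H1703 and 470 and 697 in NCI-H1703R. Scaled to library size as CPM (counts in 1e6 counts of the library), the levels were 37.2 and 65.0 in NCI-H1581, 393 and 329 in NCI-H1581R, 0.703 and 0.658 in NCI-H1703 and 12.4 and 18.4 in NCI-H1703R. No 2 variants overlapped, and the order was NCI-H1581R, NCI-H1581, NCI-H1703R, NCI-H1703. The means were 361 ± 45.2, 51.1 ± 19.7, 15.4 ± 4.22 and 0.680 ± 0.0318 CPM in that order (SD, n = 2 each). Among the 18203 genes tested, a GJA1 level ranked at the 97.8th percentile in both NCI-H1581R libraries, at the 69.8th and 80.4th in NCI-H1581, at the 51.1st and 57.1st in NCI-H1703R and at the 28.0th and 29.2nd in NCI-H1703.

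The mean CPM of GJA1 was 7.07-fold higher in NCI-H1581R than in NCI-H1581 and 22.6-fold higher in NCI-H1703R than in NCI-H1703. On the log2 scale of the edgeR fit these differences were 2.82 (SE 0.30) and 4.52 (SE 0.35). The values that chose GJA1 are these, so no p-value is given for them, nor for the difference of 1.67 (SE 0.61) between the lines. The larger fold in NCI-H1703R started from the lower level and ended below that of the sensitive NCI-H1581 cells, whose mean was 3.32-fold above that of NCI-H1703R. The sensitive NCI-H1581 replicates were the least alike, with the second at 65.0 and the first at 37.2 CPM. Leaving out each library in turn gave log2 differences of 2.46 to 3.29 in NCI-H1581 and of 4.21 to 4.79 in NCI-H1703. Some lineage markers also moved with resistance. In NCI-H1581R 1 of 3 tested squamous markers was called higher, TP63 (2.30, adjusted p = 0.00103, edgeR), and 0 were called lower. Of 3 tested lung markers 1 was called higher, NKX2-1 (1.81, adjusted p = 0.00600, edgeR), and 0 were called lower. The other tested markers were not called there: KRT5 (-0.27), DSG3 (-0.20), SFTPB (-0.74) and NAPSA (1.01). The summed squamous level was 6.62 and 7.27 CPM in NCI-H1581 and 28.0 and 32.5 in NCI-H1581R, where TP63 alone made up 27.8 and 31.2. The summed lung level was 15.6 and 17.5 against 41.5 and 61.5, and NKX2-1 alone made up 40.1 and 59.5 in NCI-H1581R. In NCI-H1703R none of these 6 markers was called; the summed squamous level was 0.243 and 1.35 CPM in NCI-H1703 and 0.449 and 1.19 in NCI-H1703R, and the lung level 1.97 and 2.60 against 1.96 and 2.06. The part of these lineage markers in the GJA1 values was not tested. The pseudogene GJA1P1, on chromosome 5, which resembles GJA1 closely, had 0 counts in all 8 libraries.

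**Figure D1:**
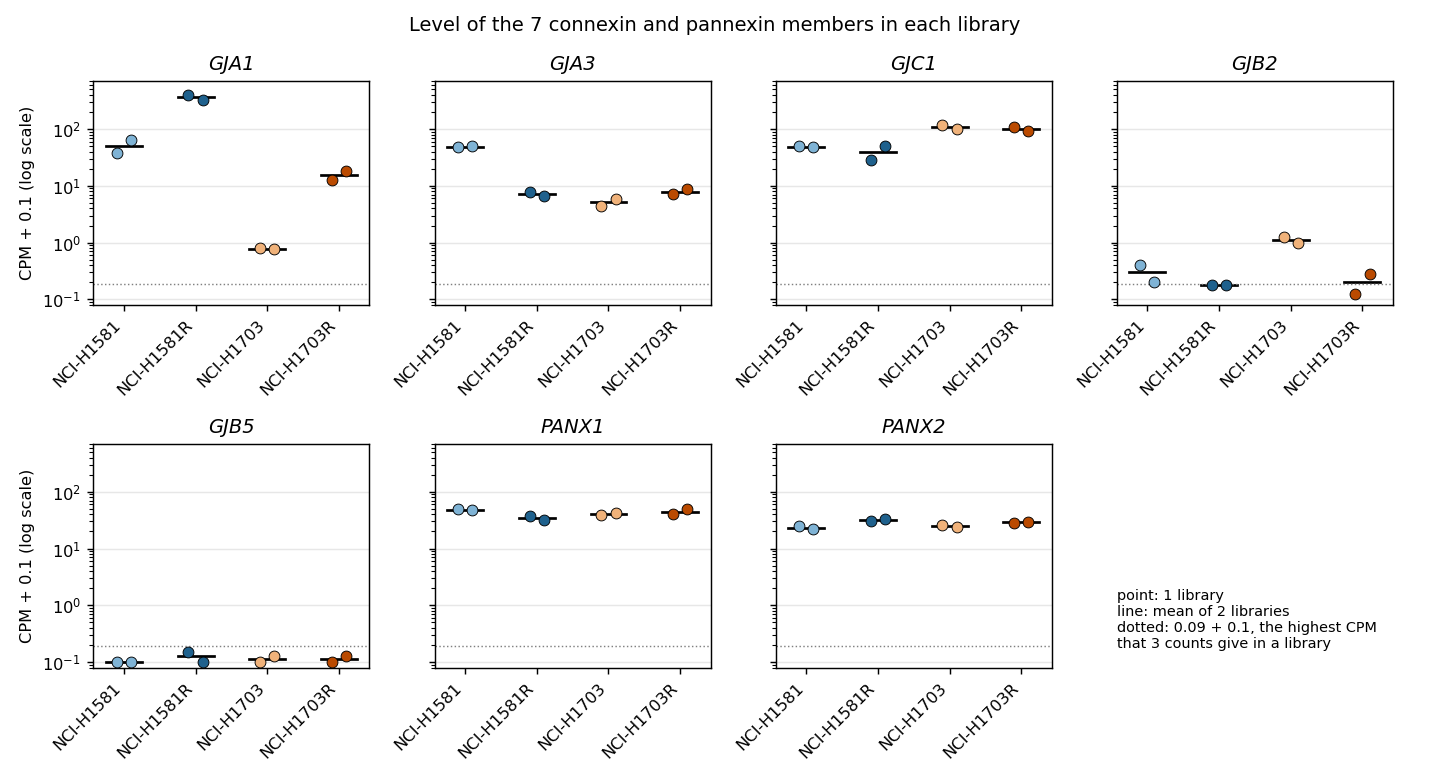
Levels of the 7 members in each of the 8 libraries, as CPM plus 0.1 on a log10 axis, with 1 panel per gene, 1 point per library and a bar at the mean of each variant (n = 2). GJA1 spans the widest range, from 0.658 CPM in a NCI-H1703 library to 393 CPM in a NCI-H1581R library, GJA3 is high in NCI-H1581 alone, and PANX1 and PANX2 stay within a narrow band.

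The background for the members is the share of all 18203 tested genes that was called at an adjusted p under 0.1. It was 15.1% for NCI-H1581R against NCI-H1581, with 7.63% higher and 7.44% lower, and 14.7% for NCI-H1703R against NCI-H1703, with 7.06% higher and 7.67% lower; with the replicate number as a block 6357 genes were called in NCI-H1703 in place of 2683. Besides GJA1, 5 members could be tested. In NCI-H1581R 1 of these 5 was called, GJA3, which fell, and in NCI-H1703R 1 of 5 was called, GJB2, which fell. Both shares are near the background, and none of the 5 was called in both lines, where 0.692% of genes were called higher and 0.95% lower.

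GJA3 encodes connexin 46, a gap junction protein best known from the lens. It had 1610 and 1987 counts in NCI-H1581, 288 and 260 in NCI-H1581R, 162 and 192 in NCI-H1703 and 268 and 324 in NCI-H1703R. The sensitive NCI-H1581 cells thus stood alone at 48.7 ± 1.30 CPM, and the other 3 variants had 7.13 ± 0.741, 5.06 ± 0.964 and 7.82 ± 1.04 CPM (SD, n = 2 each). GJA3 fell by 2.76 on the log2 scale in NCI-H1581R (SE 0.19, adjusted p = 0.000368, edgeR). In NCI-H1703R both libraries were above both NCI-H1703 libraries, but the difference of 0.66 (SE 0.22) did not pass (adjusted p = 0.140), whereas with the replicate number as a block it did (adjusted p = 0.0194). The changes in the 2 lines differed by 3.41 (SE 0.27, adjusted p = 0.000167, edgeR interaction term), against a background of 15.4% of genes called in that test, 6.93% with a positive and 8.47% with a negative term. In NCI-H1581R, then, connexin 46 transcript was lower while connexin 43 transcript was higher.

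GJC1 encodes connexin 45, a connexin of heart conduction tissue, vessels and many embryonic cells. Its counts were 1693 and 1891 in NCI-H1581, 1049 and 1978 in NCI-H1581R, 4273 and 3282 in NCI-H1703 and 4140 and 3501 in NCI-H1703R. The variants of each line overlapped, and no change with resistance passed (log2 difference -0.31, SE 0.28, adjusted p = 0.586 in NCI-H1581 and -0.05, SE 0.13, adjusted p = 0.882 in NCI-H1703). The NCI-H1581 value rested on the second NCI-H1581R library; without it the difference was -0.81 with an adjusted p of 0.0153.

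GJB2 and GJB5 encode connexin 26 and connexin 31.1, both typical of stratified epithelia. GJB2 had 43 and 29 counts in NCI-H1703, 1 and 7 in NCI-H1703R, 10 and 4 in NCI-H1581 and 3 and 3 in NCI-H1581R. Only NCI-H1703 stood clearly above 3 counts per library, which is 0.0749 to 0.0897 CPM and was taken as the floor of detection. GJB2 fell by 3.20 in NCI-H1703R (SE 0.74, adjusted p = 0.0521, edgeR), a call that was lost without the first or second NCI-H1703 library (adjusted p = 0.254 and 0.216), without the first NCI-H1703R library (adjusted p = 0.188) and without the filter on low counts (adjusted p = 0.135). The log2 difference in NCI-H1581R was -1.24 (SE 1.01, adjusted p = 0.518), with both NCI-H1581R libraries at the floor. KRT18, a keratin of simple epithelia, fell beside GJB2 from 2380 and 2188 counts in NCI-H1703 to 109 and 94 in NCI-H1703R, while KRT8 had 77 to 269, KRT19 30 to 87 and CDH1 10 to 46 counts over all libraries. The summed level of the 5 epithelial markers was 75.6 and 73.3 CPM in NCI-H1703 and 8.41 and 6.76 in NCI-H1703R. KRT18 alone made up 64.3 and 65.4 CPM in NCI-H1703 and 2.88 and 2.48 in NCI-H1703R. Not called in NCI-H1703R were KRT8 (-1.13, adjusted p = 0.121, edgeR), KRT19 (-0.74, adjusted p = 0.280), CDH1 (-0.77, adjusted p = 0.375) and EPCAM (-0.30, adjusted p = 0.912). The part of these epithelial genes in the GJB2 value was not tested. GJB5 had 2 counts in 1 NCI-H1581R library, 1 count in each of 2 others and 0 in the remaining 5, and was not tested.

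Neither of the 2 pannexins was called with resistance by edgeR. PANX1, the widely expressed ATP-release channel, had 1673 and 1892 counts in NCI-H1581, 1378 and 1256 in NCI-H1581R, 1412 and 1432 in NCI-H1703 and 1527 and 1841 in NCI-H1703R. Both NCI-H1581R libraries were below both NCI-H1581 libraries, at 34.3 ± 3.33 against 48.4 ± 1.70 CPM (SD, n = 2 each), but the log2 difference of -0.49 (SE 0.17) did not pass with edgeR (adjusted p = 0.133). It passed with DESeq2 (adjusted p = 0.0683) and in a single fit of all 8 libraries (adjusted p = 0.0465). In NCI-H1703R the log2 difference was 0.17 (SE 0.13, adjusted p = 0.508) and the variants overlapped. The interaction term of 0.64 (SE 0.20, adjusted p = 0.0931) was called, and was not called with the replicate number as a block (adjusted p = 0.136), without the filter (adjusted p = 0.173) or in 7 of the 8 fits that left out 1 library.

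PANX2, a pannexin abundant in the brain, had 823 and 874 counts in NCI-H1581, 1150 and 1288 in NCI-H1581R, 956 and 795 in NCI-H1703 and 1078 and 1102 in NCI-H1703R. Resistant libraries were above sensitive ones in both lines without overlap. The log2 differences of 0.46 (SE 0.18, adjusted p = 0.167) and 0.25 (SE 0.10, adjusted p = 0.216) did not pass with edgeR. The first passed in a single fit of all 8 libraries (adjusted p = 0.0454) and the second with the replicate number as a block (adjusted p = 0.0705). Of the 5 members, 4 in NCI-H1581 and 3 in NCI-H1703 showed no overlap between the variants, beside 50.6% and 51.3% of all tested genes.

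**Figure D2:**
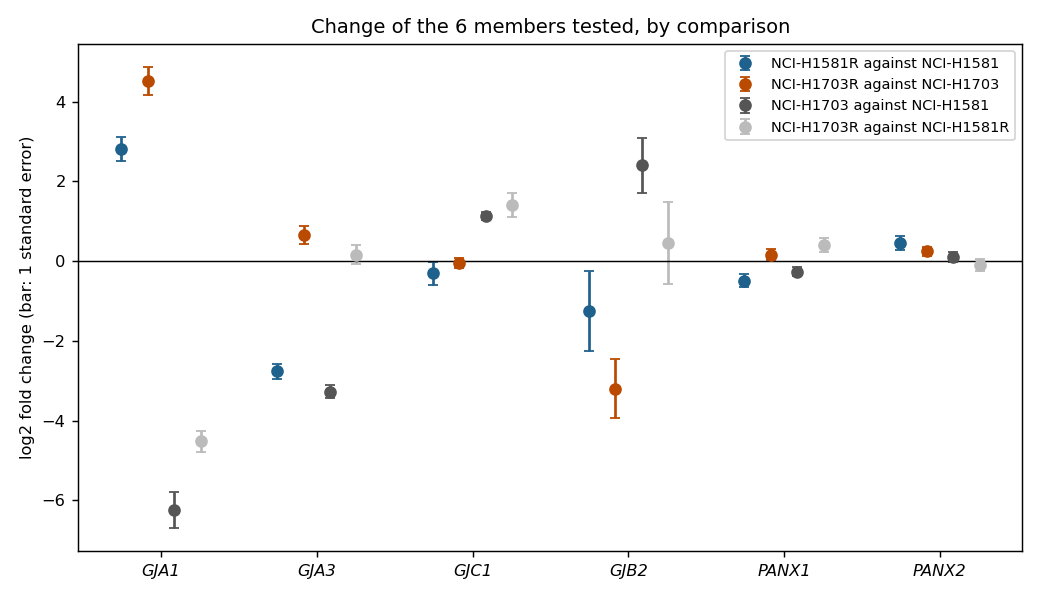
Log2 difference for the 6 members with enough counts, with bars of 1 SE from the edgeR fit (n = 2 per variant). Points show resistant against sensitive in both lines, NCI-H1703 against NCI-H1581, and NCI-H1703R against NCI-H1581R. For resistant against sensitive, GJA1 is far above 0 in both lines (2.82 and 4.52), and GJA3 lies at -2.76 in NCI-H1581 and 0.66 in NCI-H1703. In these 2 comparisons GJC1, PANX1 and PANX2 stay within 0.5 of 0. Between the sensitive lines GJA1 lies at -6.23 and GJC1 at 1.13, and both keep their sign between the resistant variants.

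Of the 17 family genes outside the members, 8 had at least 10 counts in total and 4 had 0 in every library. Over the whole family, 14 genes could be tested. Leaving GJA1 aside, 0 were called higher and 2 lower in NCI-H1581R, and 0 higher and 1 lower in NCI-H1703R. Over all tested genes, 7.63% were called higher and 7.44% lower in NCI-H1581R, and 7.06% and 7.67% in NCI-H1703R. Low-count family genes included GJA9, GJB1, GJC3, GJD3, GJD4 and PANX3, with at most 13 counts in any library, and none of these was called with resistance. GJD3 had 13 and 10 counts in NCI-H1581 and at most 6 in the other variants. GJD4 had 12 and 7 in NCI-H1703, 4 and 2 in NCI-H1703R and at most 2 elsewhere.

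To compare levels between genes, CPM were divided by the length of the main transcript in kb. On this scale GJA1 in NCI-H1581R was at 128 and 107 CPM per kb, the highest of the family, whereas in NCI-H1581 it was second in 1 library (12.1) and first in the other (21.1), next to PANX1 at 17.4 and 16.6. In NCI-H1703 GJA1 was seventh in both libraries, at 0.228 and 0.213 CPM per kb, below the other 5 tested members. In NCI-H1703R it ranked below only 3 genes, at 4.03 and 5.97 CPM per kb, behind PANX1, GJC1 and PANX2 and above GJA3 (1.36 and 1.64). In the NCI-H1703 pair PANX1 and GJC1 held the first 2 places in every library, at 13.4 to 17.04 and 12.01 to 15.02 CPM per kb.

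GJA1 made up 21.8% and 34.02% of the summed family level in NCI-H1581, 81.6% and 77.8% in NCI-H1581R, 0.583% and 0.564% in NCI-H1703 and 9.29% and 12.8% in NCI-H1703R. The family sum itself was 55.3 and 62.0 CPM per kb in NCI-H1581 and 156 and 137 in NCI-H1581R. In NCI-H1703 it was 39.1 and 37.9, and in NCI-H1703R 43.4 and 46.8. The sum in NCI-H1581R was therefore mostly connexin 43 transcript, while that of the NCI-H1703 pair was mostly PANX1, GJC1 and PANX2. Since GJA1 was chosen for its rise, these shares follow in part from the choice and carry no test.

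**Figure D3:**
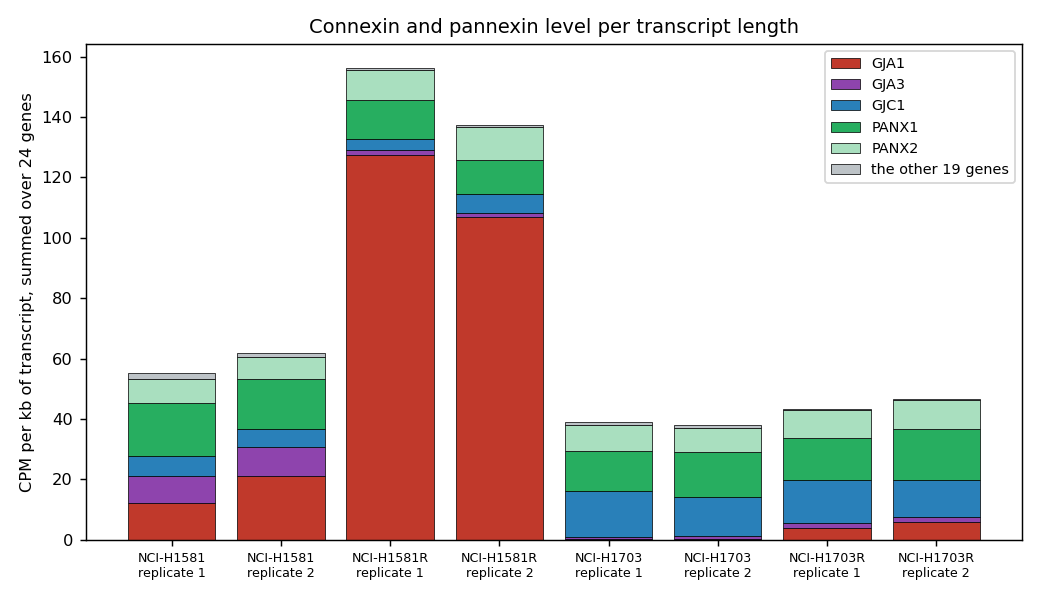
Summed level of the connexin and pannexin genes in CPM per kb, stacked by gene, with 1 bar for each of the 8 libraries. The bars of NCI-H1581R reach 156 and 137 and are mostly GJA1, and those of NCI-H1703 and NCI-H1703R reach 37.9 to 46.8 and are mostly PANX1, GJC1 and PANX2.

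Differences between the lines had no part in the choice of GJA1 and were tested for all 6 members with enough counts. They use the same libraries as the comparisons above and so are not independent of them. Between the sensitive lines, 62.9% of all tested genes were called, and 5 of the 6 members were, with 32.5% of genes higher and 30.4% lower in NCI-H1703. Values of 5 members did not overlap, beside 76.7% of genes. GJA1 was lower in NCI-H1703 than in NCI-H1581 by a log2 difference of -6.23 (SE 0.45, adjusted p = 2.07e-05), a 75.1-fold ratio of mean CPM, and GJA3 was lower with a difference of -3.27 (SE 0.17, adjusted p = 3.31e-06). GJC1 was higher in NCI-H1703 by 1.13 (SE 0.11, adjusted p = 9.79e-05) and GJB2 by 2.40 (SE 0.69, adjusted p = 0.0199). PANX1 was lower with a difference of -0.26 (SE 0.12, adjusted p = 0.0984), a call lost in 7 of the alternatives, among them 3 of the 4 fits without 1 library (adjusted p = 0.114 to 0.421). PANX2 differed by 0.10 (SE 0.13, adjusted p = 0.515). The sensitive lines thus carried different connexin transcripts, GJA1 and GJA3 beside GJC1 in NCI-H1581 and mainly GJC1 in NCI-H1703.

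Between the resistant variants, 52.5% of all tested genes were called, and 2 of the 6 members were, with 25.9% of genes higher and 26.7% lower in NCI-H1703R. Values of 4 members did not overlap, beside 71.3% of genes. GJA1 was lower in NCI-H1703R than in NCI-H1581R with a log2 difference of -4.52 (SE 0.26, adjusted p = 0.000174), a 23.4-fold ratio of mean CPM, and GJC1 was higher by 1.41 (SE 0.30, adjusted p = 0.0159). GJA3, which separated the sensitive lines, differed by 0.17 (SE 0.23, adjusted p = 0.598), with 7.65 and 6.60 CPM in NCI-H1581R and 7.08 and 8.55 CPM in NCI-H1703R, values that overlap. PANX1 differed by 0.41 (SE 0.17, adjusted p = 0.110), PANX2 by -0.10 (SE 0.15, adjusted p = 0.629) and GJB2 by 0.46 (SE 1.04, adjusted p = 0.754).

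Genes that act on connexins were followed by lists. The background for each list is the share of all tested genes called. It was 7.63% higher and 7.44% lower in NCI-H1581R, and 7.06% higher and 7.67% lower in NCI-H1703R. Of 13 scaffold and adhesion partners, 1 was called higher and 0 lower in NCI-H1581R (median log2 difference 0.21, beside 0.04 over all tested genes), and 1 higher and 2 lower in NCI-H1703R (median -0.12, beside 0.00). CCN3, a secreted matricellular protein that binds connexin 43, rose by 3.09 in NCI-H1581R, from 7 and 6 to 66 and 51 counts (adjusted p = 0.0290). CDH2, the N-cadherin of adherens junctions, fell by 5.42 in NCI-H1703R, from 1857 and 1626 to 41 and 44 counts (adjusted p = 0.000199), and its difference in NCI-H1581R was -1.37 (adjusted p = 0.114). The tight junction protein OCLN fell by 0.97 and CTNND1, which encodes the cadherin-binding p120 catenin, rose by 0.62 in NCI-H1703R (adjusted p = 0.0129 and 0.0216). Not called were TJP3 (0.81, adjusted p = 0.134) and CTNND1 (0.41, adjusted p = 0.173) in NCI-H1581R and CTNNB1, the beta-catenin gene (-0.19, adjusted p = 0.276), in NCI-H1703R.

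Of 13 kinases listed for the phosphorylation of connexin 43, not each of which need act on it directly, 2 were called higher and 0 lower in NCI-H1581R (median -0.02). In NCI-H1703R 2 were called higher and 1 lower (median -0.02). The background was 7.63% higher and 7.44% lower in NCI-H1581R, and 7.06% and 7.67% in NCI-H1703R. PRKACB, a catalytic subunit of protein kinase A, rose by 1.71 in NCI-H1581R (adjusted p = 0.0155). PRKCA, the conventional protein kinase C alpha, rose by 0.48 and SRC by 0.40 in NCI-H1703R (adjusted p = 0.0352 and 0.0523). PRKCE (-1.66, adjusted p = 0.121) and CSNK1D (0.38, adjusted p = 0.236) in NCI-H1581R and MAPK7 (0.33, adjusted p = 0.120) in NCI-H1703R were not called.

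Of 10 genes of connexin assembly and turnover, 3 were called higher and 0 lower in NCI-H1581R (median 0.45). In NCI-H1703R 2 were called higher and 0 lower (median 0.12). The background was 7.63% higher and 7.44% lower in NCI-H1581R, and 7.06% and 7.67% in NCI-H1703R. The turnover genes called include ubiquitin ligases that mark connexin 43 or related membrane proteins for removal. NEDD4 rose by 1.26, SMURF2 by 1.01 and WWP1 by 0.96 in NCI-H1581R (adjusted p = 0.00876, 0.0176 and 0.0323). In NCI-H1703R WWP1 rose by 0.62 and SQSTM1, an autophagy receptor, by 0.47 (adjusted p = 0.0268 and 0.0976). The endocytic adaptor EPS15 (0.62, adjusted p = 0.131) in NCI-H1581R and STAMBP (0.29, adjusted p = 0.188) and HGS (0.18, adjusted p = 0.409) in NCI-H1703R were not called.

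Of 15 tested purinergic genes, which bind or degrade the ATP that pannexins release, 0 were called higher and 4 lower in NCI-H1581R (median -0.74). In NCI-H1703R 0 were called higher and 2 lower (median 0.03). The background was 7.63% higher and 7.44% lower in NCI-H1581R, and 7.06% and 7.67% in NCI-H1703R. In NCI-H1581R the adenosine receptors ADORA1 and ADORA2B fell by 3.76 and 0.76, the ectonucleotidase ENTPD1 (CD39) by 2.26 and the ATP-gated channel P2RX5 by 0.74 (adjusted p = 0.00204, 0.0831, 0.0470 and 0.0558). In NCI-H1703R NT5E (CD73), which makes adenosine from AMP, fell by 3.13, from 2326 and 2043 to 269 and 257 counts, and the receptor ADORA2A fell by 1.53 (adjusted p = 0.000305 and 0.00582). ENTPD2 (-1.86, adjusted p = 0.122) and P2RX4 (0.32, adjusted p = 0.140) were not called there.

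The genes whose levels over the 8 libraries were most like those of GJA1 were sought among 13375 genes by the root mean square difference of log2 CPM centred on each gene's mean, a measure on which GJA1 itself has a spread of 3.25. Among the nearest 5 were LRP1B (0.925), MAGED4 (1.15), MAN1A1 (1.20) and CYP2E1 (1.22). LRP1B, a lipoprotein receptor family gene, had 377 and 484 counts in NCI-H1581, 900 and 1038 in NCI-H1581R, 5 and 2 in NCI-H1703 and 41 and 30 in NCI-H1703R. MAGED4 has a near-identical copy, MAGED4B, between which reads may be split, and its NCI-H1581 replicates had 648 and 147 counts. CYP2E1 was near the floor in NCI-H1703, with 4 and 1 counts, and had 10 and 7 in NCI-H1703R. The log2 differences in NCI-H1581R were 1.12 for LRP1B, 0.56 for MAGED4, 2.001 for MAN1A1 and 2.09 for CYP2E1, beside 2.82 for GJA1. Since the points are 8 libraries of 4 variants, and lines differ at most genes, this likeness is a description. Ranked by Pearson's r instead, none of the 5 genes was the same.

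MAN1A1 is also a neighbour of GJA1 on chromosome 6. Within 3 Mb of the start of GJA1, 13 other protein-coding genes were tested. Over all tested genes, 7.63% were called higher and 7.44% lower in NCI-H1581R (median log2 difference 0.04), and 7.06% and 7.67% in NCI-H1703R (median 0.00). Of the 13 genes, 7 were called higher and 0 lower in NCI-H1581R (median 1.54), and 2 higher and 0 lower in NCI-H1703R (median 0.28). The 2 called in both lines were MAN1A1, a Golgi mannosidase 2085834 bp away (2.001 in NCI-H1581R, adjusted p = 0.00113; 2.40 in NCI-H1703R, adjusted p = 0.0179), and TBC1D32, a ciliary gene 100850 bp away (1.79, adjusted p = 0.0110; 0.75, adjusted p = 0.0850). FAM184A (2.67), TRDN (2.41), NKAIN2 (3.32), CEP85L (1.54) and HSF2 (0.76) were called in NCI-H1581R and not in NCI-H1703R, a contrast between the lines that is not given a test here. CLVS2, TRDN and NKAIN2 had 0 counts in the NCI-H1703 pair, so they enter its count and median with a log2 difference of 0. The window was chosen after the values were seen, and DNA copy number there was not analysed here. From array hybridisation, the authors report fewer DNA copies in NCI-H1581R than in NCI-H1581 over large parts of the chromosome that carries GJA1. Whether the window lies in those parts is not given in their text. Their list of copy number changes in NCI-H1703R does not name this chromosome. The part of DNA copy number in the values of these neighbours was not tested.

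**Figure D4:**
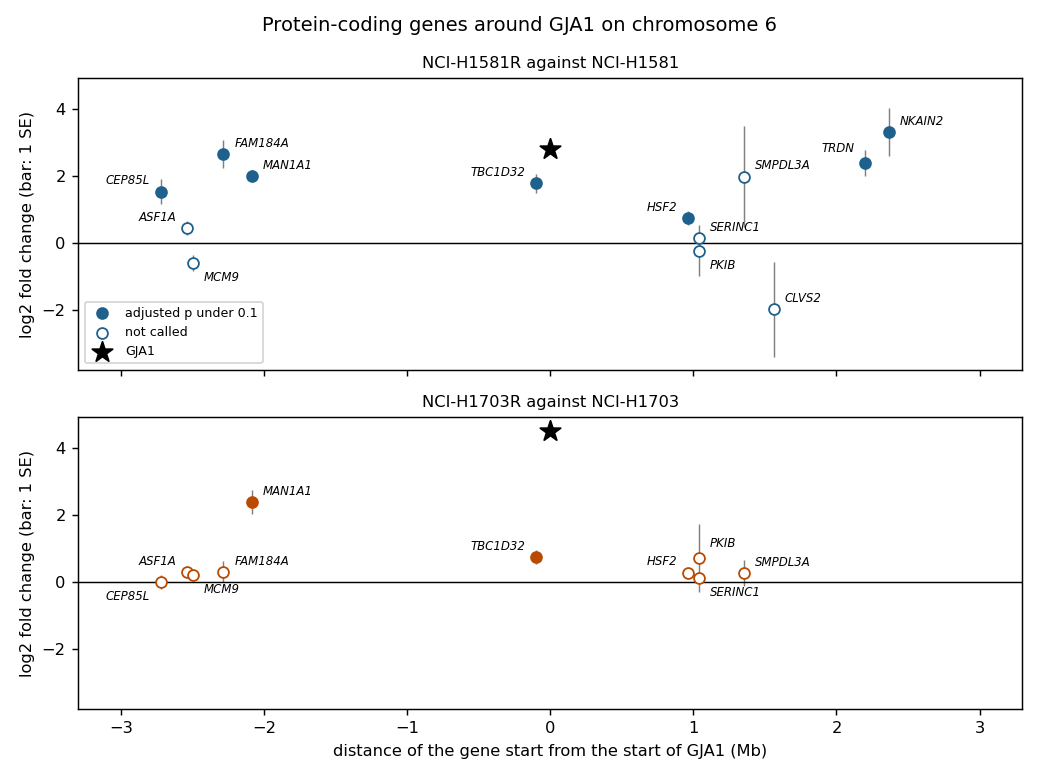
Log2 difference between resistant and sensitive libraries of GJA1 (star) and of the protein-coding genes tested within 3 Mb, against the distance of their start from the start of GJA1 in Mb, for NCI-H1581R above and NCI-H1703R below, with bars of 1 SE and filled points for genes called. In NCI-H1581R 7 of 13 neighbours are called higher, on both sides of GJA1, beside 7.63% of all tested genes. In NCI-H1703R 2 are called higher, MAN1A1 and TBC1D32, beside 7.06%. Genes with 0 counts in a line are not drawn in its panel.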

How the data were processed

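RNA of 2 cell lines and their resistant variants was sequenced as paired reads of 100 bp, 2 replicates per variant. The authors ran Salmon on GRCh38 and imported its output at the gene level through tximport; they deposited estimated counts, as whole numbers without any normalisation. All 8 columns were used. The submitters' processing notes also name cutadapt. Salmon's version, the annotation, the tximport scaling and strandedness are not given in the sources used here. Symbols, positions and transcript lengths came from GENCODE v44, in which 17177 of the 18203 tested genes had an entry.

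Genes whose counts over all libraries reached 10 were tested with edgeR 4.0.16 (TMM, quasi-likelihood test, two-sided) in R 4.3.3, on the 4 libraries of each comparison, which leaves 2 residual degrees of freedom; the interaction used all 8. A gene was called at a Benjamini-Hochberg adjusted p under 0.1 over all genes. The SE is the log2 difference divided by the square root of F. CPM use TMM factors over all 8 libraries. The fits were tested on simulated data. Floors cover counting error only.

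Per the methods, seeding, medium change and harvest were all done again to give replicate 2, so replicate numbers were taken as rounds of culture. Deviations of same-numbered libraries correlated at 0.15 between the NCI-H1581 variants and at 0.23 between the NCI-H1703 variants, but at -0.34 between the resistant variants (across 11174 genes). In each variant the replicates differed beyond sampling noise, so none was a copy.

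The alternatives were DESeq2 1.42.0, RLE normalisation, no filter, at least 10 counts in every library, the replicate block, 1 fit of all 8 libraries, an adjusted p of 0.05 and leaving out each library. Legacy quasi-dispersions, a block within lines and a crossed block were added after seeing the data. Named genes were the 7 members, family genes with at least 10 counts, up to 4 genes per list and line by adjusted p plus any called in both, and the 5 genes most like GJA1 of those with a mean of at least 1 CPM. Members, lists and rules were chosen with earlier results of these data known. A few genes that these rules select are not reported here. Promoter sequences came from RefSeq (GRCh38.p14), with an entry for 4 of the 7 members.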

Additional observations from a re-analysis of the deposited data

Results flagged for a closer look

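The change with resistance was compared between the lines by the interaction term of the edgeR fit of all 8 libraries. The genes compared were the members other than GJA1, the other tested family genes, the list genes named above and the cell type markers. The genes below had a term with an adjusted p under 0.1. A positive term is a larger or less negative change in NCI-H1703R. Among the members these were GJA3 (3.41, adjusted p = 0.000167) and PANX1 (0.64, adjusted p = 0.0931). Of the adhesion partners, CDH2 had -4.08 (adjusted p = 0.00108). Of the kinases, PRKACB had -1.82 (adjusted p = 0.00407). Of the turnover genes, NEDD4 had -1.33 (adjusted p = 0.0424), SMURF2 -1.17 (adjusted p = 0.00792), EPS15 -0.71 (adjusted p = 0.0970) and SQSTM1 0.89 (adjusted p = 0.0976). Of the purinergic genes, ADORA1 had 3.16 (adjusted p = 0.00569), ENTPD1 3.28 (adjusted p = 0.0439) and ADORA2A -3.13 (adjusted p = 0.0580), the last with 33 and 0 counts in the 2 NCI-H1581 libraries. Of the cell type markers, KRT18 had -4.54 (adjusted p = 0.00135) and NKX2-1 -3.02 (adjusted p = 0.0623). The share of all genes called in this test was 15.4%. The list genes were named for a small adjusted p in 1 or both lines, in these same libraries. A difference between the lines follows in part from that choice, so 15.4% is no background for them and their terms are a description.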

How the results depend on the processing

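With 2 libraries per variant, calls near the threshold depend on single libraries, and transcripts under about 10 counts per library cannot be ranked at this depth. Changes of sign came from leaving out 1 library, in values that did not pass with or without that library: GJC1 ranged from -0.81 to 0.063 in NCI-H1581 (positive without the first NCI-H1581R library), from -0.17 to 0.063 in NCI-H1703 (positive without the first NCI-H1703 or the second NCI-H1703R library) and from -0.13 to 0.72 for the interaction (negative without the first NCI-H1581R library), and between the resistant variants GJA3 ranged from -0.020 to 0.29 and GJB2 from -1.46 to 1.23 (both negative without the second NCI-H1703R library). The number of genes called in NCI-H1581 was 1828 without a filter, 4539 in 1 fit of all 8 libraries and 1793 at an adjusted p of 0.05, against 2743. In NCI-H1703 it was 1314, 1730 and 1640, and 6357 with the replicate block, against 2683, and in 1 fit of all 8 libraries 39.2% of these calls were higher in place of 47.9%. The cause was not tested. Without 1 library, the genes called ranged from 1122 to 5186 in NCI-H1581, from 274 to 1686 in NCI-H1703, from 9603 to 10970 between the sensitive lines, from 6120 to 10361 between the resistant variants and from 1571 to 4141 for the interaction. The log2 difference of GJA1 then ranged from 2.46 to 3.29 in NCI-H1581, from 4.21 to 4.79 in NCI-H1703, from -6.57 to -5.76 and from -4.87 to -4.27 between the sensitive and the resistant variants, and from 1.21 to 2.02 for the interaction. The replicate block gave 3293 genes in NCI-H1581, 11409 between the sensitive lines, 7638 between the resistant variants and 2526 for the interaction (3437 within line), and changed among members the calls of GJA3 and PANX2 in NCI-H1703 and of PANX1 in the interaction. Pairing crossed numbers gave 11063 genes between the resistant variants. DESeq2 called 3223 and 3037 genes in NCI-H1581 and NCI-H1703. Of 65 values for GJA1, those between the sensitive lines and between the resistant variants were judged by the call, which none lost. The rest were compared with the replicate spread, and 2 moved beyond it. Of 320 values for the other members 22 lost a call, 12 gained one and 6 changed sign. With merged exons as length the share of GJA1 in NCI-H1703 was 0.547% in place of 0.573%, and by Pearson's r 0 of the 5 genes most like GJA1 were shared. GJB2 could not be tested with at least 10 counts in every library.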

Other observations

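KRT5, a basal keratin, had 47, 41, 35 and 38 counts in the second replicate of NCI-H1581, NCI-H1581R, NCI-H1703 and NCI-H1703R and 1, 0, 1 and 0 in the first. It was the only gene of 37441 with at most 3 counts in every first replicate and at least 30 in every second one, a rule written after the values were seen, and no gene showed the opposite. This rule finds only genes nearly absent from 1 replicate number, so it cannot show smaller differences between replicates in the 7 connexin and pannexin genes.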
